A study of Mus musculus with 11 samples.

Results

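An established mouse induced pluripotent stem cell (iPSC) line and a mouse embryonic stem cell (ESC) line were compared by small RNA sequencing. They are 2 of the 11 libraries of the small RNA table, 1 library each, and were chosen by their labels. The table lists 3859 small RNA genes. Of these, 1419 had a mean of at least 10 FPKM over the 11 libraries and were compared, among them 901 microRNA (miRNA) genes and 413 small nucleolar RNA (snoRNA) genes. FPKM is the number of fragments scaled to the length of the transcript and to the mapped fragments of the library.

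The study followed fibroblasts on their way to pluripotency. The other 9 libraries are uninduced embryonic fibroblasts (MEF) and days 1 to 8 after doxycycline. Doxycycline switches on a cassette for Oct4, Klf4, Sox2 and Myc (OKSM) in these cells, which are labelled Mbd3f/-: of their alleles of Mbd3, part of the chromatin remodeller NuRD, 1 is floxed and 1 deleted.

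The iPSC line is labelled Mbd3f/- and, per the design text, had been passaged at least 3 times after reprogramming. The ESC line is labelled Mbd3f/- too, but the table heads its values with the name of the ESC line V6.5, which the design text gives as wild type or Mbd3f/-, so its genotype is unclear. A difference in Mbd3 genotype, a difference between 2 cell lines and the history of reprogramming cannot be told apart here. Both lines were grown for 3 to 4 days before harvest in serum-free N2B27 medium with LIF and the 2 inhibitors of MEK and GSK3 (2i). Both were plated on irradiated human foreskin fibroblasts, as were days 3 to 8, while MEF and days 1 and 2 are not labelled as having such feeders. With 1 library per line there is no replicate, no test was made, and every difference is a difference between these libraries. Intervals given with folds are 95% Clopper-Pearson intervals on reads recovered from the FPKM and cover counting error only.

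MicroRNAs are short RNAs cut from hairpin precursors. They pair with messenger RNAs mainly through the seed, the bases near their 5′ end, so miRNAs that share a seed share many targets. Several are transcribed together from clusters: the miR-290 and miR-302 clusters mark mouse pluripotent cells, let-7 accumulates with differentiation and is held low in pluripotent cells by Lin28, and the imprinted Dlk1-Dio3 domain has been used to tell fully from partly reprogrammed mouse iPSC. snoRNAs guide the chemical modification of ribosomal RNA, most of them from introns of host genes.

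The mature sequences behind the largest differences are shown 5′ to 3′ as RefSeq gives them (GRCm38.p6), with the seed, bases 2 to 8, in capitals. The table gives 1 value for a hairpin, so it does not tell which arm of the hairpin was read. All 18 miRNA genes of an X-linked cluster that was higher in iPSC have a RefSeq entry. Their 32 mature sequences carry 25 different seeds, and 5 of the seeds are shared between members. The first pair shares the seed AAAGACA, the second pair AUUCAGA and the last pair AUCAGGG, and miR-470-5p comes from the member with the highest FPKM.
miR-743a-3p: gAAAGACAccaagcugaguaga
miR-743b-3p: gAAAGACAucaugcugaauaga
miR-743a-5p: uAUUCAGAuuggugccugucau
miR-871-5p: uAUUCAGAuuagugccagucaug
miR-465a-3p: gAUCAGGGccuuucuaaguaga
miR-465b-3p: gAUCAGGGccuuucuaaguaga
miR-470-5p: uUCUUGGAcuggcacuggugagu

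The miRNAs that were lower in iPSC include 2 of the 3 members of the miR-99 and miR-100 family, let-7b of the let-7 family, and the paired miR-221 and miR-222. They are printed with their relatives miR-99b, let-7c and let-7g, which were higher, less far apart or alike, to show how little the sequences differ.
miR-100-5p: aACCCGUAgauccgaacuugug
miR-99a-5p: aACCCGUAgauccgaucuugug
miR-99b-5p: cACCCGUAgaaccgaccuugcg
let-7b-5p: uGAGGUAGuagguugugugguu
let-7c-5p: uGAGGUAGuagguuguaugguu
let-7g-5p: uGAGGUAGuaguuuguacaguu
miR-221-3p: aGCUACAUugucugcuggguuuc
miR-222-3p: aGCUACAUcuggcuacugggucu
Counted from the 5′ end, miR-100-5p differs from miR-99a-5p by A16U alone, and let-7b-5p differs from let-7c-5p by G17A alone. let-7b-5p and let-7g-5p differ at 4 positions, G12U, G17A, U18C and G19A.

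Arms cut from the 3′ side of hairpins in both pluripotency clusters, miR-290 and miR-302, show the shared seed AAGUGCU. Mir291b, the one member of its cluster that was far lower in iPSC, has the change U8A relative to miR-291a-3p, which falls on the last base of the seed.
miR-291a-3p: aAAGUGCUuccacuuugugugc
miR-294-3p: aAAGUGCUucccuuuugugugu
miR-302b-3p: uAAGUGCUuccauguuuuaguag
miR-291b-3p: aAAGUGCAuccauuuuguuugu

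Most small RNAs were close in the iPSC and the ESC line. On the log2(FPKM + 10) scale, 859 of the 1419 transcripts (60.5%) lay within 2-fold. Among the 660 with at least 1000 FPKM in either line, 442 (67.0%) did. The values of the 1419 transcripts correlated with a Pearson r of 0.947 across genes, which share the libraries and are not replicates. At least 4-fold differences were counted in 154 transcripts that were higher in iPSC (10.9% of all tested) and 101 that were lower (7.12%). Of these, 87 and 55 had under 10 recovered reads in both lines. Among the 660 abundant transcripts, 47 were at least 4-fold higher (7.12%) and 37 at least 4-fold lower (5.61%). The 47 comprised 44 miRNAs and 3 snoRNAs, and the 37 comprised 32 miRNAs and 5 snoRNAs. The shares of all tested transcripts are the background for the counts of list members past 4-fold given below. For counts past 2-fold the background is 330 of the 1419 at least 2-fold higher in iPSC and 230 at least 2-fold lower.

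The steps recovered from the low values imply about 14900000 mapped reads in iPSC and 17800000 in ESC. The table took 53.8% of them in iPSC and 51.5% in ESC. Its miRNA genes held 89.6% of those reads in iPSC and 90.5% in ESC. On days 7 and 8 the table took 22.7% and 27.7% of the mapped reads. FPKM is scaled to all mapped reads, so comparisons of the lines with these days depend on the scaling. The median difference, iPSC minus ESC, over all tested transcripts was 0.15 (log2), and 0.05 after rescaling by median ratios, so differences of that size can change sign with the scaling. After rescaling, 132 transcripts were at least 4-fold higher in iPSC (9.3%) and 82 at least 4-fold lower (5.78%). As a yardstick, some pairs of libraries at 1 day's distance were compared. Of abundant transcripts, 2.01% were at least 4-fold apart between days 8 and 7 and 4.33% between days 6 and 5. The share was 8.53% between days 4 and 3 and 7.56% between days 2 and 1. Days 3 and 2, days 5 and 4, and days 7 and 6 were not compared in this way. Between iPSC and ESC the share was 12.7%. Other measures ordered the pairs differently: the middle 50% of the differences spanned 1.23 (log2) between iPSC and ESC, but 1.49 between days 2 and 1. Pearson's r across abundant transcripts was 0.890 between iPSC and ESC, against 0.863 between days 2 and 1, 0.858 between days 4 and 3, 0.927 between days 6 and 5 and 0.976 between days 8 and 7.

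**Figure D1:**
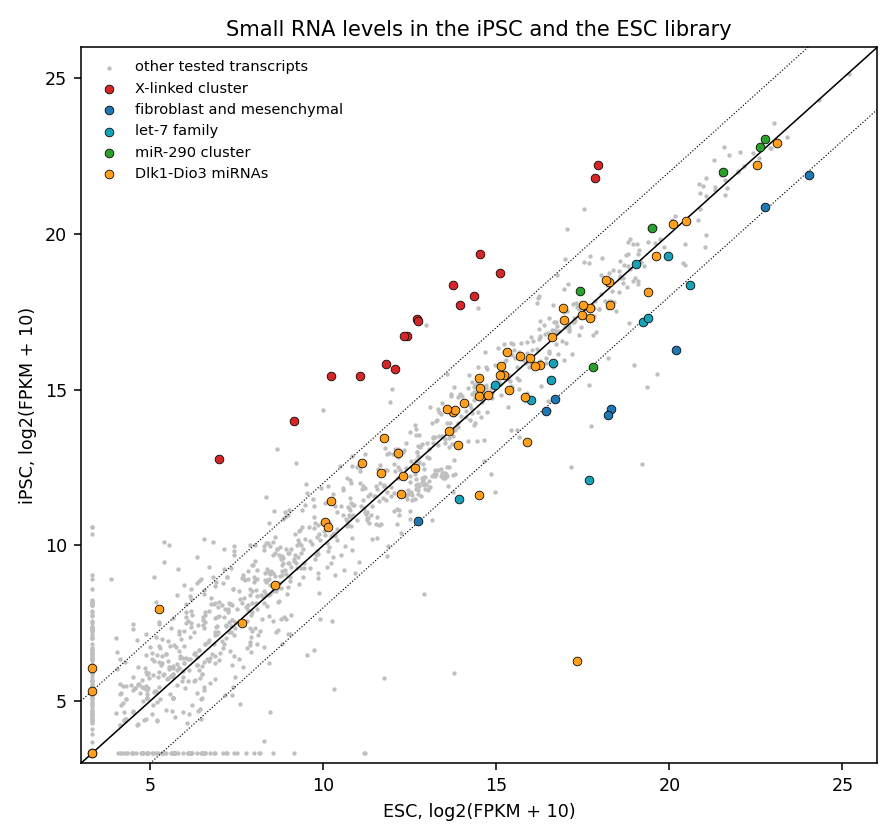
Level of each of the 1419 tested transcripts in the iPSC library (vertical) against the ESC library (horizontal), both as log2(FPKM + 10); the solid line marks equal values and the dotted lines a 4-fold difference. The 17 listed X-linked miRNAs lie above the upper dotted line, the fibroblast and let-7 lists on or below the diagonal with 2 let-7 members just above it, and most Dlk1-Dio3 and miR-290 members along it.

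The most abundant small RNAs were largely the same. Mir183 and Mir92-1 ranked first and second by FPKM in both lines. Mir183, of a sensory and epithelial cluster, had 37465500 FPKM in iPSC and 38329300 in ESC. Mir92-1, of the proliferation-linked miR-17-92 cluster, had 20855700 and 21026100. The next places in iPSC went to the Gas5 snoRNA Gm23212, Mir148a and Mir292, and in ESC to Mir143, Mir148a and Mir127. FPKM of very short genes depends strongly on their length, so ranks between genes are approximate. Mir295, at 31201600 FPKM on day 8, and Mir182, at 37508500 on day 5, were listed at 0 in both lines and hold no rank.

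The pluripotency clusters did not separate the lines by much. The miR-290 cluster lies on chromosome 7 (3218626 to 3220841), and of its 7 tested members none was at least 4-fold higher and 1 was at least 4-fold lower in iPSC, with a median difference of 0.31. Mir292 had 8813650 FPKM in iPSC and 7109920 in ESC, Mir293 had 7237250 and 6430410, and Mir294 had 1204470 and 743003. All 3 were slightly higher in iPSC, by less than 2-fold. The cluster took 7.41% of the recovered reads in iPSC (7.39% to 7.43%) and 6.29% in ESC (6.27% to 6.30%), though Mir295 was listed at 0 in both lines and adds nothing to either share. Its last listed value, on day 8, was 31201600 FPKM. The exception was Mir291b, with 54055 FPKM in iPSC and 227511 in ESC, 4.21-fold lower in iPSC (3.97 to 4.47).

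The miR-302 cluster on chromosome 3 (127545228 to 127545807) had all 5 members within 2-fold, with a median of -0.33. Mir302b stood at 17754 FPKM in iPSC and 17693 in ESC, and Mir302d at 92866 and 132602. The widest gap was in Mir367, which had 1635 FPKM in iPSC and 3236 in ESC, from 35.2 and 83.3 recovered reads. The related proliferation clusters were close too: the median was -0.30 over 6 members of miR-17-92, 0.11 over 6 of miR-106a-363 (-0.01 rescaled) and 0.68 over 3 of miR-106b-25, with no member past 4-fold in any of the 3. In miR-106b-25, Mir25, Mir93 and Mir106b were all higher in iPSC, Mir93 with 3179000 FPKM against 1914370 in ESC.

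Epithelial miRNAs were present in both lines and mostly lower in iPSC. The miR-200 family, which holds down the mesenchymal factors Zeb1 and Zeb2, had a median of -0.48 over 5 members and none past 4-fold. Mir141 had 1021060 FPKM in iPSC and 2176040 in ESC, and Mir429 had 155351 and 157745. Mir205 had 344245 FPKM in iPSC and 555269 in ESC, and Mir203 had 6657 and 25794, 3.87-fold lower in iPSC (3.24 to 4.65), with a median of -1.32 for these 2 genes. The miR-183-96-182 cluster had a median of -0.03, with Mir182 listed at 0 in both lines.

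The list with the largest median difference was a cluster on the X chromosome. Its 17 members, known from mouse testis and spermatogenic cells, were all at least 4-fold higher in iPSC, by a median of 4.38 (log2; range 3.59 to 5.79), where 10.9% of all tested transcripts were that much higher. Together they held 3.15% of the recovered reads in iPSC (3.13% to 3.16%) and 0.186% in ESC. The genes lie between Slitrk2 and Gm1140, all on the minus strand and outside annotated genes of that strand, from 66776757 to 66839125 (mm10), a stretch of 62.4 kb. Mir465, the gene of miR-465a, lies there too but was not on the list, and with it 18 of 18 tested transcripts of the stretch were at least 4-fold higher.

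Mir470 led the cluster with 4871230 FPKM in iPSC and 251903 in ESC, 19.3-fold higher in iPSC (18.9 to 19.8). Mir871 had 3667170 FPKM in iPSC and 237606 in ESC, 15.4-fold higher (15.1 to 15.8). Mir470 rests on 104941 recovered reads in iPSC and 6489 in ESC, so its counting error is small beside the difference. Mir743b had 672488 FPKM in iPSC and 23478 in ESC, 28.6-fold higher (26.5 to 31.0), and its neighbour Mir743, which shares the seed of its 3′ arm, had 44569 and 1187, 37.5-fold higher (23.7 to 64.4). Mir463 had 334161 FPKM in iPSC and 13878 in ESC, 24.1-fold higher (21.7 to 26.9). Mir883b was at 16251 FPKM in iPSC and 557.9 in ESC, 29.1-fold higher (17.8 to 51.6). The highest ratio, 59.9 for Mir742, is the least certain: its 6951 FPKM in iPSC and 116 in ESC come from 101 and 2 reads, with an interval of 16.3 to 505.

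The Mir465 genes form near-identical copies, and reads that match several of them cannot be placed, so their separate values are uncertain. Mir465c-1 had 159762 FPKM in iPSC and 6664 in ESC, Mir465c-2 had 152303 and 6852, Mir465b-1 had 108231 and 5480, and Mir465b-2 had 109077 and 5110. All 4 copies were between 19.8-fold and 24.0-fold higher in iPSC. The lowest ratios of the cluster were 12.1-fold for Mir880, 12.6-fold for Mir741 and 12.7-fold for Mir878.

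Across the other libraries the cluster was low early and higher late. As deposited, its sum stayed below that of both lines in all of them. For day 8 and ESC this order depends on the scaling, since the table took 27.7% of mapped reads on day 8 and 51.5% in ESC. Summed over members, MEF had 1705 FPKM, day 2 had 5793, day 5 had 40883, day 6 had 164280 and day 8 had 387483, with 11225712 in iPSC and 634997 in ESC. For Mir470 alone, MEF had 418.7 FPKM, day 5 had 17967 and day 8 had 170927. Day 8 thus lay nearer to ESC than to iPSC. As deposited, 3 of the 17 members, Mir465b-1, Mir471 and Mir742, were higher on day 8 than in ESC. The rest of the X chromosome did not show this: of 66 other tested X-linked transcripts, 8 were at least 4-fold higher in iPSC and 3 lower, with a median of 0.25. Among the abundant transcripts at least 4-fold higher in iPSC, 21 of 47 were X-linked, against 56 of all 660. The 3 outside the cluster were Mir351, Mir3475 and Mir2137.

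**Figure D2:**
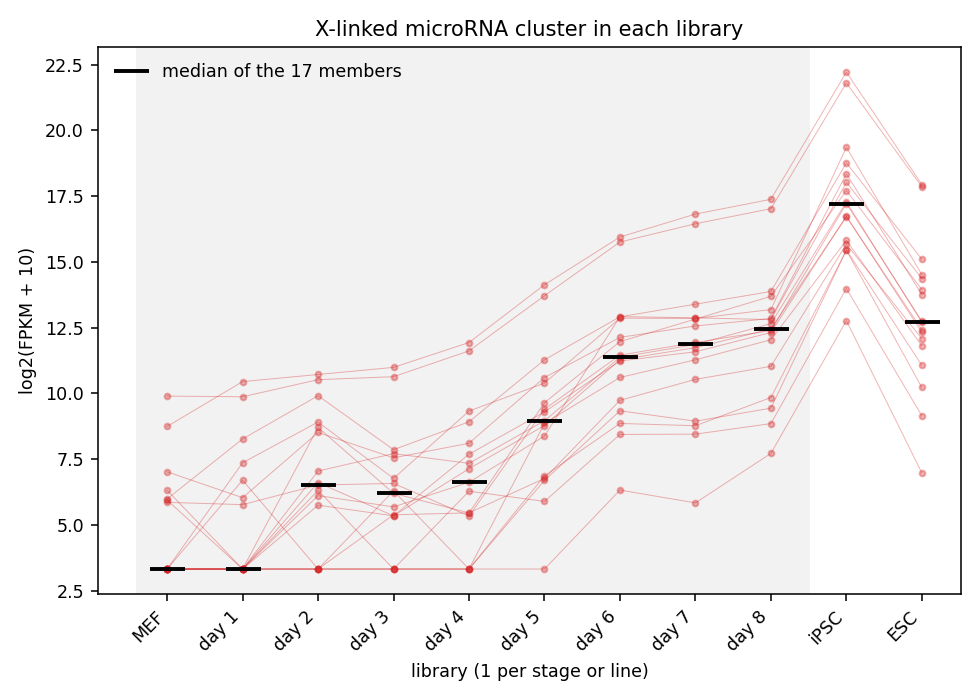
Level, as log2(FPKM + 10), of the 17 listed X-linked miRNAs in each of the 11 libraries; points are members, lines join the values of 1 member, black bars are medians, and the shaded part covers MEF and days 1 to 8. Every member is highest in the iPSC library, and the summed level is 11225712 FPKM in iPSC, 634997 in ESC and 387483 on day 8.

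The miR-322 cluster, elsewhere on the X chromosome (53047997 to 53054349, 6.35 kb), was higher in iPSC to a smaller degree. Its miRNAs miR-322 and miR-503 restrain cell cycle genes and rise with muscle differentiation. Of all 1419 tested transcripts, 330 were at least 2-fold higher in iPSC and 154 at least 4-fold. All 7 members of the cluster were at least 2-fold higher, by a median of 1.61, and 1 of them was at least 4-fold higher. That member was Mir351, with 1841990 FPKM in iPSC and 188758 in ESC, 9.76-fold higher (9.57 to 9.95). Mir322 had 262235 FPKM in iPSC and 76835 in ESC, Mir542 had 224125 and 73638, and Mir450b had 347432 and 138942. Between 2.26-fold for Mir450-2 and 3.41-fold for Mir322, the other 6 were closely grouped. The cluster summed to 5960185 FPKM in MEF and 138167 on day 8, against 2728663 in iPSC and 500193 in ESC.

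Another group lies on chromosome 7 between Snrpn and Ndn, in the region of the Prader-Willi imprinted genes. The miR-344 genes there (61683124 to 62046248) are described because they stood out in these data, and their choice carries no weight of its own. Of 10 tested, 7 were at least 4-fold higher in iPSC and 1 was at least 4-fold lower, with a median of 3.26. Over all tested transcripts the shares were 10.9% and 7.12%. Mir344b had 20811 FPKM in iPSC and 1011 in ESC, 20.6-fold higher (12.6 to 36.9), from 278 and 16.1 reads. Mir344-2 had 6410 and 584, 11.0-fold higher (6.77 to 19.1), and Mir344 had 2977 and 313, 9.51-fold higher (5.62 to 17.1). Reads were few: Mir344d-2, with 1088 FPKM in iPSC and 32.4 in ESC, rests on 28.1 and 1.0 reads and a ratio of 33.5 (5.54 to 1369), and Mir344d-1 was at 1534 FPKM in iPSC and listed at 0 in ESC. Mir344c, the one that was lower, was listed at 0 in iPSC and at 43.1 FPKM in ESC. MEF had a summed level of 16347 FPKM and day 8 one of 3119, with 34935 in iPSC and 2248 in ESC. The 4 listed Snord genes of the same imprinted region had a median of -0.12, and Snord64 had 66017 FPKM in iPSC and 88528 in ESC. Gm22348, a snoRNA gene in Snhg14 that is not on that list, had 1933 FPKM in iPSC and 471 in ESC, 4.11-fold higher (2.22 to 8.05), on 48.2 and 14.0 reads, and was at 1.89 (log2) after rescaling, short of 4-fold.

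Other miRNAs at least 4-fold higher in iPSC lay outside these clusters. The miR-34 family, targets of p53, had 2 of 3 members past 4-fold, both on chromosome 9: Mir34b had 24795 FPKM in iPSC and 3886 in ESC, 6.38-fold higher (5.33 to 7.73), and Mir34c had 604658 and 129548, 4.67-fold higher (4.50 to 4.84). Mir34a, at another locus, had 148358 and 104447. Mir211, which lies in an intron of the melanocyte gene Trpm1, had 1180320 FPKM in iPSC and 135398 in ESC, 8.72-fold higher (8.53 to 8.91). Mir184, a miRNA of lens and cornea, had 204018 and 22843, 8.93-fold higher (8.10 to 9.85). Mir208b, from an intron of the slow myosin gene Myh7, had 8798 and 397.9, 22.1-fold higher (12.1 to 45.1), on 204 and 11.0 reads. At the Igf2 locus, Mir483 had 3982 FPKM in iPSC and 715 in ESC, 5.57-fold higher (3.30 to 10.1). A hairpin in P2rx7, mmu-mir-8115, had 1015 and 37.1 FPKM, 27.3-fold higher (9.80 to 97.6) on 86.7 and 3.79 reads.

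Setting these beside the stages separates 2 kinds of level. Mir211 had 3290 FPKM in MEF, while day 5 had 103752 and day 8 had 156224. As deposited, day 8 and ESC were thus alike, and iPSC stood above both. Mir184 stayed between 7962 and 29533 FPKM over MEF and days 1 to 8, near the ESC value and below the 204018 FPKM of iPSC. Mir208b and Mir34c, by contrast, were high in MEF, at 4052 and 738053 FPKM, and at 438 and 58819 on day 8. Of the 47 abundant transcripts at least 4-fold higher in iPSC, 22 were higher in MEF than in ESC. Of the 37 that were lower, 18 were, beside 191 of all 660 abundant transcripts (28.9%). The ESC values took part in choosing both groups, low in the 47 and high in the 37. A level above ESC is thereby made more likely in the 47 and less likely in the 37, so no link with MEF is read from these counts.

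Among snoRNAs, the H/ACA class leaned higher in iPSC and single members of other classes stood apart. C/D box snoRNAs, which guide ribose methylation, had a median of 0.26 over 71, with 1 at least 4-fold higher and 1 lower. H/ACA box snoRNAs, which guide pseudouridylation, had a median of 0.80 over 29, and 0.66 rescaled. Over all tested transcripts the medians were 0.15 and 0.05. Of the 29, 26 were higher in iPSC, 8 of them at least 2-fold. Among all 1419 tested transcripts 330 were at least 2-fold higher, so the 2-fold count is near the background. The small RNAs of Cajal bodies had a median of 0.40 over 9. Snord21, within the ribosomal protein gene Rpl5, had 1529 FPKM in iPSC and 0.0384 in ESC, which is below the worth of 1 read, so no fold is given. Snord123 had 5012 FPKM in iPSC and 29602 in ESC, 5.91-fold lower in iPSC (4.73 to 7.40). The libraries were size selected on a gel, and the table does not tell whether whole snoRNAs or fragments of them were read.

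Neighbours within 1 host gene differed by unequal amounts, and in Gas5 also in direction. In Gas5, a host of snoRNAs on chromosome 1, Gm22489 had 33146 FPKM in iPSC and 4076 in ESC, 8.13-fold higher (6.25 to 10.9), while Gm22357, at 13472 and 43733, and Mir5117, at 10780 and 25356, were lower in iPSC. The most abundant of the 9, Gm23212, had 12356200 FPKM in iPSC and 8494940 in ESC. In Zfas1, on chromosome 2, Gm25878 had 57139 FPKM in iPSC and 511942 in ESC, 8.96-fold lower (8.58 to 9.36), Snord12 had 25251 and 92836, and Gm23201 had 54609 and 62596. Summed, the 3 reached 1105693 FPKM on day 4 and 1000235 on day 5 but lay between 79071 and 154586 in the other libraries of the course, so the ESC sum of 667374 is within the range of the course and the iPSC sum of 136999 is too. Both host lists were drawn up after their values were seen.

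In the other direction, the fibroblast and mesenchymal list was lower in iPSC as a whole. All 8 members were at least 2-fold lower and 6 of them at least 4-fold, where 7.12% of all tested transcripts were, with a median of -2.14. The list summed to 6024738 FPKM in iPSC and 26405874 in ESC, and took 1.66% of the recovered reads in iPSC and 7.48% in ESC. Fewer cells of a type and less RNA per cell cannot be told apart in such bulk values.

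Mir199b, a miRNA of connective tissue, had 18652 FPKM in iPSC and 308204 in ESC, 16.5-fold lower in iPSC (15.6 to 17.5). Mir199a-1 had 79285 and 1197780, and Mir199a-2 had 21527 and 326082, each about as far apart, and the 3 genes share mature sequence, so they are not independent values. Mir143, the best known miRNA of smooth muscle and fibroblasts and among the 5 most abundant in ESC, had 3927200 FPKM in iPSC and 17316200 in ESC, 4.41-fold lower (4.37 to 4.45). Its cluster partner Mir145 had 20341 and 89240, 4.39-fold lower (3.91 to 4.92). Mir152 had 26511 FPKM in iPSC and 106644 in ESC, 4.02-fold lower. Mir21 and Mir214 did not reach 4-fold, with 1929470 FPKM in iPSC and 7054880 in ESC for Mir21.

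Lists of other cell types had smaller medians. Of 10 blood cell miRNAs none was 4-fold apart, 2 were at least 2-fold higher in iPSC and 4 at least 2-fold lower. Of all 1419 tested transcripts, 330 were at least 2-fold higher and 230 at least 2-fold lower. The median of the 10 was -0.62, and -0.99 over the 8 above 0 in both lines. Mir223 and Mir511 of myeloid cells were listed at 0 in both lines. Mir142 had 563551 FPKM in iPSC and 187969 in ESC, and Mir146b had 555777 and 1374180. Over 8 neural miRNAs the median was 0.24, and each was within 2-fold. Of 6 muscle miRNAs 1 was past 4-fold, Mir206 at 50.4 FPKM in iPSC and listed at 0 in ESC, which is 1 read, and the list summed to 1837 FPKM in iPSC and 855 in ESC. Mir126, of endothelium, had 204018 FPKM in iPSC and 231538 in ESC.

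The let-7 family split by member. Of 11 tested, 5 were at least 4-fold lower in iPSC and none at least 4-fold higher, with a median of -1.31. Among all tested transcripts, 7.12% were that much lower and 10.9% that much higher. Mirlet7b had 4367 FPKM in iPSC and 210276 in ESC, 48.2-fold lower in iPSC (40.7 to 57.8). Mirlet7i had 334458 FPKM in iPSC and 1569830 in ESC, 4.69-fold lower, and mmu-let-7j had 2875 and 15660. Mirlet7a-1 and Mirlet7a-2, which encode the same mature miRNA, had 148723 and 161634 FPKM in iPSC and 620177 and 689786 in ESC. Against these, Mirlet7g stood at 544587 FPKM in iPSC and 540971 in ESC, a ratio of 1.01 (0.987 to 1.03), and Mirlet7d at 36338 and 32089. Mirlet7c-2, next to Mirlet7b on chromosome 15, had 40998 FPKM in iPSC and 97594 in ESC, 2.38-fold lower, so the 2 neighbours differed by very unequal amounts.

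The 3 clusters that join let-7 to miR-99 or miR-100 and miR-125 differed in the same way. The chromosome 9 cluster (41531425 to 41582002) had all 3 members at least 4-fold lower in iPSC, with Mir100 at 6216 FPKM in iPSC and 602545 in ESC, 96.9-fold lower (82.9 to 114), and Mir125b-1 at 66356 and 304605, 4.59-fold lower (4.35 to 4.85). On chromosome 16 (77598936 to 77646343) Mir99a had 5908 FPKM in iPSC and 146379 in ESC, 24.8-fold lower (19.9 to 31.0), Mir125b-2 had 36827 and 211442, 5.74-fold lower (5.30 to 6.23), and Mirlet7c-1 had 26244 and 65134. On chromosome 17 the outer members went the other way: Mir99b had 5516590 FPKM in iPSC and 2538650 in ESC, and Mir125a had 1209200 and 690980, with differences of 1.12 and 0.81. The hairpin between them, listed as Gm25927, had 35548 FPKM in iPSC and 43565 in ESC, a difference of -0.29. Within each of the first 2 clusters, members of 1 locus thus differed by very unequal amounts between the lines.

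Mir221 and Mir222, neighbours on the X chromosome that act on the cell cycle inhibitor p27 and were picked out after their values were seen, were both far lower in iPSC. Mir221 had 35232 FPKM in iPSC and 676409 in ESC, 19.2-fold lower (18.2 to 20.2), and Mir222 had 46322 and 811467, 17.5-fold lower (16.5 to 18.6). Mir490, from an intron of Chrm2, had 337 FPKM in iPSC and 7631 in ESC, 22.6-fold lower (12.2 to 48.0). Others past 4-fold were Mir147, with 3383 FPKM in iPSC and 31963 in ESC, Mir29a with 20724 and 93270, Mir196b of the Hoxa cluster with 11549 and 51391, Mir574 with 3342 and 13878, and Mir132 with 798 and 3690. The other Hox miRNAs did not follow Mir196b: 5 of 6 were higher in iPSC, and Mir10b had 4202500 FPKM in iPSC and 4142650 in ESC.

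The stages show where these miRNAs stood before. For Mir100, MEF had 791857 FPKM, day 2 had 170633, day 3 had 1224150 and day 8 had 427156. Mirlet7b stayed between 162000 and 395904 FPKM over MEF and days 1 to 8, and Mir221 was at 314547 on day 2 and 966360 on day 3. The iPSC library was thus below every stage and ESC within their range for all 3. Day 3 is the first stage labelled as on human feeders, and reads of let-7b or miR-100 from human and mouse cells cannot be told apart, since the mature sequences are the same in both species. Of the 37 abundant transcripts at least 4-fold lower in iPSC, 17 (45.9%) were at least 2-fold higher on day 3 than on day 2. Of the 47 at least 4-fold higher in iPSC 5 (10.6%) were, and of all 660 abundant transcripts 65 (9.85%) were. The share of feeder RNA in each library was not measured, and its part in the differences was not tested.

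**Figure D3:**
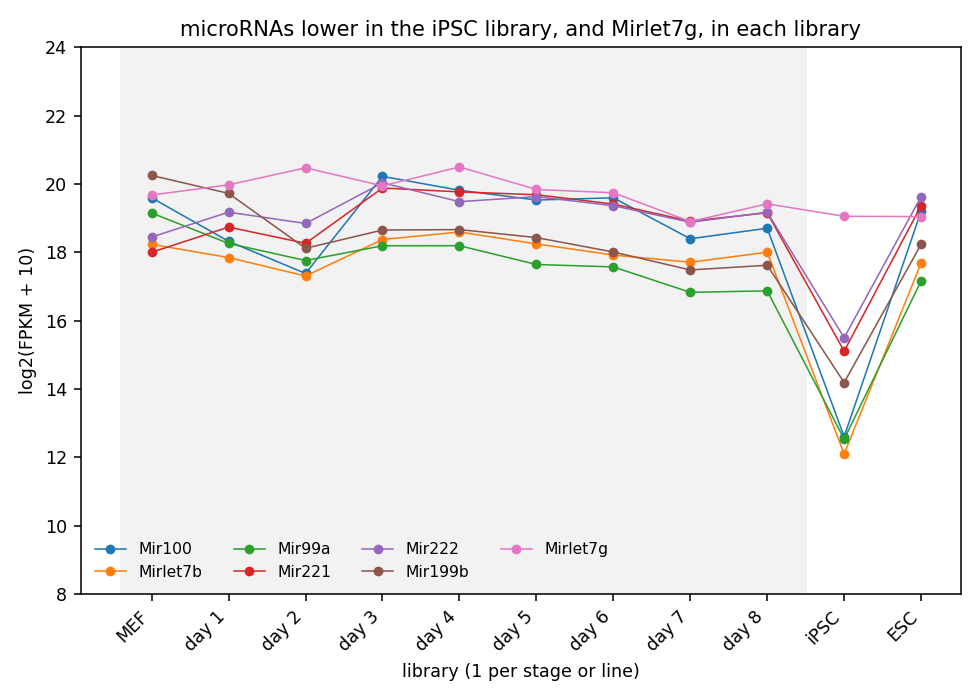
Level, as log2(FPKM + 10), of 6 miRNA genes that were at least 4-fold lower in iPSC than in ESC, and of Mirlet7g, in each of the 11 libraries; the shaded part covers MEF and days 1 to 8. All 6 are lowest in the iPSC library, with Mir100 at 6216 FPKM there and 602545 in ESC, while Mirlet7g is level between the lines at 544587 and 540971.

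Transcripts that were higher on days 3 and 4 than before were gathered in a list after the data were seen. They are the 28 whose values on days 3 and 4 were at least 1000 FPKM and at least 2-fold above each earlier library. This rule does not require an abrupt step between days 2 and 3, and steadily rising transcripts pass it too. Mir295, a member, had already risen between days 1 and 2, from 265541 to 3706300 FPKM. Of the 28, 7 were at least 4-fold lower in iPSC, none higher, and the median was -0.94. Of all tested transcripts, 7.12% were that much lower. Mir654 had 67.5 FPKM in iPSC, the worth of 2 reads, and 164921 in ESC, a ratio of 2444 (679 to 20266), and was at 146.8 on day 2 and 297835 on day 3. Gm24899, a snoRNA gene of the Dlk1-Dio3 domain, had 50.4 FPKM in iPSC, the worth of 1 read, and 14177 in ESC, a ratio of 281 (50.5 to 11230). The remaining 5 were Mir493, Mir539, Mir490, Mir221 and Mir467e. Gm25802, an snoRNA gene on chromosome 3 outside the list, had a like profile with 43.3 FPKM in iPSC and 3473 in ESC, listed at 0 on day 2 and at 3296 on day 3. Gm25117, in Nap1l1, was at 31.7 FPKM in iPSC and 1263 in ESC but was still low on day 3, with 13.8 on day 2 and 19.3 on day 3. It was high later, at 3321 on day 4 and 3747 on day 5, and low again at 32.0 on day 6.

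Small RNAs of the Dlk1-Dio3 domain on chromosome 12, whose maternal small RNAs are silenced in some mouse iPSC, were read in both libraries. The parental allele was not told apart, and the share of reads from the human feeders was not measured. The 55 tested miRNAs of the domain had a median of 0.20, with 3 at least 4-fold higher and 3 at least 4-fold lower in iPSC. The 20 other small RNAs, mostly C/D box snoRNA genes, had a median of -0.01, with none higher and 2 lower. Over all tested transcripts, 10.9% were at least 4-fold higher and 7.12% at least 4-fold lower. Mir127, opposite Rtl1, had 7998180 FPKM in iPSC and 9089220 in ESC. Mir541 had 4915720 and 6100090, and Mir410, near the far end of the large array, had 1315320 and 1131100. The miRNAs of the domain took 6.35% of the recovered reads in iPSC and 7.53% in ESC.

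The exceptions inside the domain were few. Of the 5 at least 4-fold lower, Gm23347 was listed at 0 in iPSC and at 30.2 FPKM in ESC, the worth of 1 read. The other 4, Mir654, Gm24899, Mir493 and Mir539, all belong to the list of transcripts higher on days 3 and 4 than before. Mir493 had 10339 FPKM in iPSC and 60731 in ESC, 5.87-fold lower (5.20 to 6.66), and Mir539 had 3153 and 23119, 7.33-fold lower (5.71 to 9.70). Without these 4, 52 of the 57 abundant transcripts of the domain were within 2-fold, and all 57 lay between -1.25 and 1.70 with a median of 0.15. The highest of them was Mir667, with 11250 FPKM in iPSC and 3446 in ESC. The 3 miRNAs past 4-fold on the higher side were low in level: Mir1188 had 239 FPKM in iPSC and 28.5 in ESC, and Mir3070b and Gm23912 had 56.9 and 30.4 in iPSC and were listed at 0 in ESC.

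**Figure D4:**
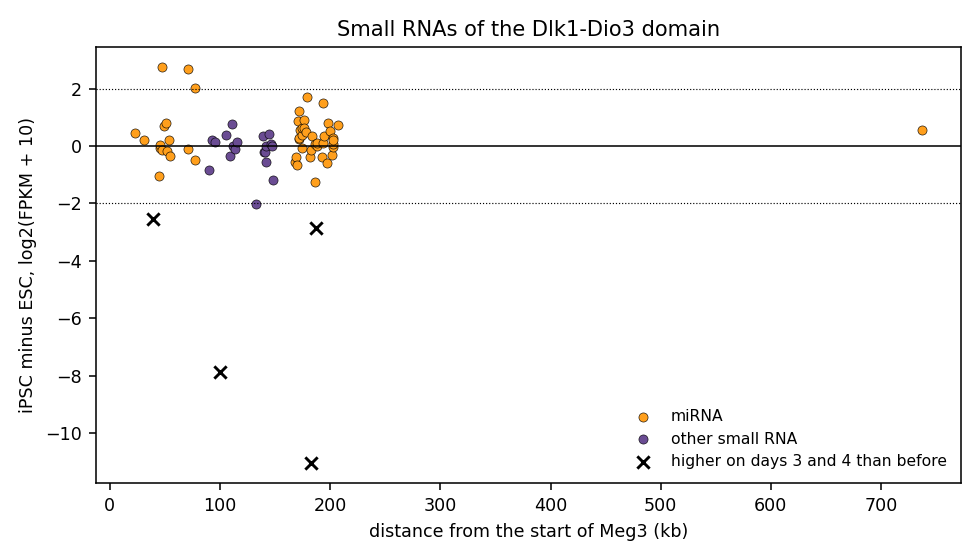
Difference between the lines, iPSC minus ESC on the log2(FPKM + 10) scale, for the 75 tested small RNAs of the Dlk1-Dio3 domain by distance from the start of Meg3 in kb. Dotted lines mark a 4-fold difference and crosses the listed transcripts that were higher on days 3 and 4 than before. Most points lie within 2-fold of equality, and the 4 crosses lie below the lower dotted line.

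The miRNAs of 2 short imprinted lists, Mest with Gnas and Igf2 with H19, leaned higher in iPSC. Of the Mest and Gnas loci, Mir335 had 617595 FPKM in iPSC and 274056 in ESC, Mir298 had 3632680 and 2186870, and Mir296 had 90549 and 46195, with a median of 0.97 and none past 4-fold. At Igf2 and H19, Mir675 had 236 FPKM in iPSC and 141 in ESC, beside the Mir483 values above.

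The large rodent array in an intron of Sfmbt2 was mostly lower in iPSC. Over 85 tested hairpins on chromosome 2 (10465287 to 10518279) the median was -0.96 (range -3.92 to 3.10), and 13 were higher in iPSC. Of the 85, 37 were at least 2-fold lower in iPSC and 4 at least 2-fold higher, beside 230 and 330 of all 1419 tested transcripts. At 4-fold, 2 of the 85 were lower and 1 was higher, below the shares of all tested transcripts, 7.12% and 10.9%. Many are near-identical copies and do not count as separate observations. Mir467c had 25780 FPKM in iPSC and 58251 in ESC, and Mir669o had 10380 and 22296. Mir467e stood out with 14552 FPKM in iPSC and 220186 in ESC, 15.1-fold lower (13.8 to 16.6). On day 2 it had 10499 FPKM, on day 3 29353 and on day 8 136364, so the iPSC value lay near that of day 2. The array summed to 232584 FPKM in iPSC and 676361 in ESC, against 33785 in MEF and 413161 on day 8.

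**Figure D5:**
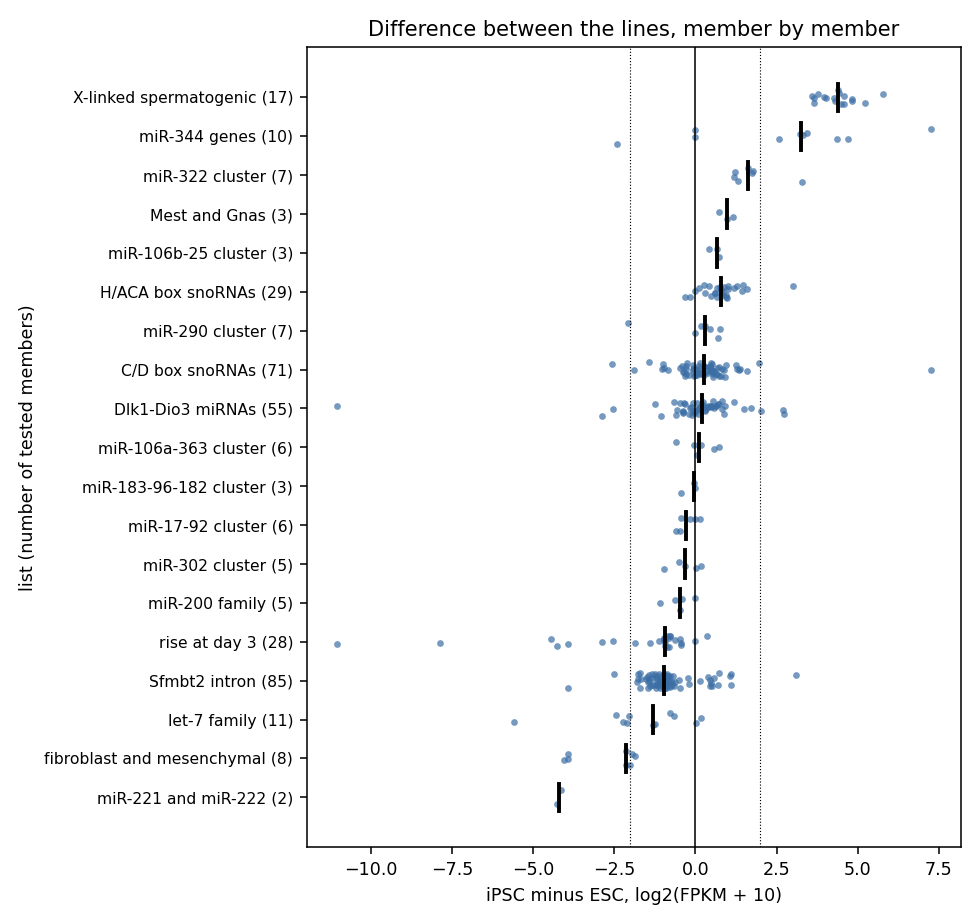
Difference between the lines, iPSC minus ESC on the log2(FPKM + 10) scale, for every tested member of 19 lists; points are transcripts, black bars medians, dotted lines a 4-fold difference, and the number of tested members stands in parentheses. Among the lists drawn, the median is 4.38 for the X-linked list, -2.14 for the fibroblast and mesenchymal list and -4.20 for the pair Mir221 and Mir222, while the pluripotency, proliferation and Dlk1-Dio3 lists lie near 0.

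Some transcripts were listed at 0 in only 1 of the lines. There were 91 at 0 in iPSC alone and 98 at 0 in ESC alone, with 112 at 0 in both. The highest in iPSC among those at 0 in ESC were Mir344d-1 at 1534 FPKM, Mir3475 at 1321, Gm24421 at 518, mmu-mir-6967 at 472 and mmu-mir-3569 at 378. The highest in ESC among those at 0 in iPSC were mmu-mir-7688 at 2336 FPKM, Mir1948 at 2312, Mir122a at 556, mmu-mir-7673 at 363 and mmu-mir-7663 at 276. These values correspond to at most 26.2 recovered reads in iPSC and 85.1 in ESC, and a 0 in such a table can also be a failed estimate. Whether that holds for Mir295 and Mir182, at 0 in both lines, was not tested.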

How the data were processed

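The deposited table holds FPKM values that the authors computed for small RNA genes. The TruSeq small RNA kit was used, with gel size selection, per the labels. CASAVA 1.8.2, Bowtie2 2, Cufflinks 2.2.1 and the build mm10 are named in the submitters' processing notes, without roles; the sources used here do not give the annotation or the treatment of reads that match several loci. Of 3859 gene IDs, 3712 were found in GENCODE vM21, from which coordinates are taken.

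Values were compared as log2(FPKM + 10) for transcripts with a mean of at least 10 FPKM over 11 libraries, iPSC minus ESC, as deposited and rescaled by median ratios. This scale understates differences of low transcripts. Reads were recovered by dividing FPKM by the worth of 1 read, modelled from an assumed fragment length of 200 ± 80 nt; of values between 0.5 and 5.5 reads, 91.4% in iPSC and 93.2% in ESC were whole within 0.1 read. The scale was set on the same values, so this is no independent check. The members and lists were chosen with earlier results of these data known. Named transcripts are the 12 with the largest difference in each direction past 4-fold on both scalings, with at least 1000 FPKM in a line and above 0 in both, 5 listed at 0 in each line and the top 5, with list members beside them. Others past 4-fold were named after their values were seen. The steps were tested on simulated data. Python 3.11.15, pandas 2.3.3 and scipy 1.17.1 were used.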

Additional observations from a re-analysis of the deposited data

How the results depend on the processing

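No paired analysis was possible because each line has 1 library, and no library could be left out. The counts of transcripts at least 4-fold higher and lower in iPSC, 154 and 101 as reported, depended on how low values were treated. They were 50 and 41 with a pseudocount of 100, 92 and 49 at a mean of at least 100 FPKM, 47 and 37 at 1000 FPKM in either line, and 83 and 46 without transcripts listed at 0 in either. With miRNA genes alone 65 were lower. At 2-fold they were 330 and 230, at 8-fold 87 and 43, and at 10 recovered reads or more, an alternative chosen after seeing the data, 67 and 45. The filters leave fewer transcripts, and a larger pseudocount shrinks the differences of low values, by construction. All 24 transcripts named by rank in the 2 directions kept a difference of at least 4-fold under both rescalings and with pseudocounts of 1 and 100. No median of a list with a difference past 2-fold changed direction under the alternatives run. A hairpin under 10 recovered reads in both lines is near the limit of detection.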
